A study of Mus musculus with 2 samples.

Results

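The immunoglobulin heavy-chain (IGH) constant genes IGHM, IGHD, IGHG3, IGHG1, IGHG2B, IGHG2C and IGHA were followed in the receptor clonotype lists of hepatic CD8αα and CD8αβ T cells. A clonotype is 1 entry of the authors' list, which is a nucleotide CDR3 with its V, J and constant gene hits, and its count is a number of reads. IGH clonotypes were the entries whose first V hit and first J hit both belonged to the heavy-chain locus, and the isotype was the first constant gene hit. This gave 133 of 940 clonotypes with 508 of 6133 reads in CD8αα cells, and 85 of 1568 clonotypes with 205 of 3215 reads in CD8αβ cells. A constant gene was listed for 126 clonotypes with 493 reads in CD8αα cells and for 75 clonotypes with 195 reads in CD8αβ cells. All 7 members were found in CD8αα cells, 6 of them were found in CD8αβ cells, and IGHE was found in CD8αβ cells in addition. Members are reported by their share of isotype-assigned IGH reads or clonotypes, with 95% Wilson confidence intervals. Reads are not independent molecules, since no molecular identifiers are described. Intervals, tests and floors reflect counting error alone, and those on reads can understate it. No difference has a replicate check, since there was 1 library of each subset. Each test of CD8αα against CD8αβ compares these 2 libraries and not the cell types. Mouse, sort and library preparation cannot be told apart from the T cell subset.

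Each of 2 bulk RNA libraries came from 1 T cell subset of the liver of TG mice, CD8αα or CD8αβ. TG mice (genotype dnTGFβRII, strain C57BL/6, 10 weeks old by the sample labels) are a model of primary biliary cholangitis in which the mouse CD4 promoter drives a human TGF-β receptor II transgene, a dominant-negative form, so that T cells respond poorly to TGF-β. The methods of the study name a somewhat younger age for mice used to prepare liver mononuclear cells. Both libraries came from the same genotype, strain, age and organ, no wild type group was analysed here, and how many mice each came from is not given in the sources used here. The question was which constant genes the IGH clonotypes of the lists carried in each T cell subset.

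A heavy chain is encoded by joined V, D and J segments followed by a constant gene. B cells first express IgM and IgD from the same rearranged DNA by alternative splicing. Class switch recombination later deletes the DNA in between and places the same V, D and J segments before a downstream constant gene, which yields IgG, IgE or IgA. Here IGHM and IGHD are called unswitched, and IGHG, IGHE and IGHA are called switched. Activated B cells also introduce point mutations into their V, D and J segments. T cells carry T cell receptor chains on their surface in place of immunoglobulin.

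The annotation of GRCm38 places the constant genes on the minus strand of chromosome 12, in a cluster of 168 kb. In the direction of transcription, the first was IGHM (113418558 to 113422730), followed by IGHD (113406604 to 113416324), IGHG3 (113356224 to 113361232), IGHG1 (113325240 to 113330523), IGHG2B (113302965 to 113307933), IGHG2C (113285325 to 113288932), IGHE (113269260 to 113273248) and IGHA (113254830 to 113260236). Each was annotated as an immunoglobulin constant gene.

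The largest clonotypes of the main isotypes are given with their nucleotide CDR3, since they weigh most in the read shares of their isotypes and let the junctions be compared. The largest IGHG2B clonotype of CD8αβ cells (IGHV1-53 with IGHJ2, 8 reads) is not printed, so IGHG2B junctions cannot be compared. Lower case marks bases aligned to the germline V segment (left) or J segment (right), and capitals mark the bases between them, which come from the D segment and from added nucleotides.
CD8αα, IGHM, IGHV14-3 with IGHJ2: tgtgctagaGGGgactactgg
CD8αα, IGHG1, IGHV3-1 with IGHJ4: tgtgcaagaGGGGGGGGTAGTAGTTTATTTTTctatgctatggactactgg
CD8αα, IGHG2B, IGHV1-78 with IGHJ3: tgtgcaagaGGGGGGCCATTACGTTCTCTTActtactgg
CD8αα, IGHG2C, IGHV1-81 with IGHJ2: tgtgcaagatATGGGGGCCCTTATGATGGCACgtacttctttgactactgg
CD8αα, IGHA, IGHV7-3 with IGHJ1: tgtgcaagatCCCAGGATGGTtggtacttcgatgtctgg
CD8αβ, IGHM, IGHV1-59 with IGHJ2: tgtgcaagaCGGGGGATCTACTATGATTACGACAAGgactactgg
CD8αβ, IGHM, IGHV1-50 with IGHJ1: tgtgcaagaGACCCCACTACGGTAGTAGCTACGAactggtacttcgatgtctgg
CD8αβ, IGHG1, IGHV1-85 with IGHJ2: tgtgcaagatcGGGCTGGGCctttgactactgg
CD8αβ, IGHG2C, IGHV5-9 with IGHJ3: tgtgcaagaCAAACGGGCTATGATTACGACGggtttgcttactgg
CD8αβ, IGHA, IGHV9-3 with IGHJ1: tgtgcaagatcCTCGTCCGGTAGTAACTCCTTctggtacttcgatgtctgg
CD8αβ, IGHA, IGHV8-8 with IGHJ4: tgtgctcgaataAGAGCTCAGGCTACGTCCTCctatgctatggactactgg

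The IGH share of the list was 8.28% of reads for CD8αα cells (7.62 to 9.0) against 6.38% for CD8αβ cells (5.58 to 7.27). They differed by 1.91 percentage points (95% Newcombe interval 0.790 to 2.98) with p = 0.000887 in a two-sided Fisher's exact test over reads. The excess was no longer past the threshold among clonotypes with at least 2 reads (0.932 percentage points, p = 0.165, Fisher's exact test) or among reads with a constant gene (1.18 percentage points, exact p = 0.0657). Counted as clonotypes, IGH was at 14.1% (12.1 to 16.5) and 5.42% (4.41 to 6.65), and at 13.3% and 5.42% with 1 IGH clonotype for each nucleotide CDR3. These shares also depend on how many clonotypes of the other chains were listed. The lists hold receptor chains only, so the labelled T cell type could be checked against receptor constant genes alone. T cell receptor constant genes took 78.0% of the reads with a constant gene in CD8αα cells and 85.3% in CD8αβ cells, and the remaining 22% and 14.7% were immunoglobulin. Within the T cell receptor genes the directions differed. Of the γ chain genes, TCRG-C2 (5.22% against 0.296% of these reads) and TCRG-C1 (1.30% against 0.037%) were higher in CD8αα cells. TCRG-C1 had 1 read in CD8αβ cells, which is under the floor of 3 reads. TRAC of the α chain (21.5% against 26.1%) and TRBC2 of the β chain (47.6% against 56.6%) were lower. TRBC1, TRDC of the δ chain, TCRG-C3 and TCRG-C4 were not past the threshold (adjusted p of 0.598 to 0.982, Fisher's exact test). TCRG-C3 had 3 and 0 reads and TCRG-C4 had 7 and 1 in CD8αα and CD8αβ cells. Light-chain constant genes took 13.6% and 7.52% of these reads, a wider gap than the 8.41% and 7.22% of the heavy-chain constant genes. Among the light-chain genes IGKC and IGLC3 were higher in CD8αα cells and past the threshold after adjustment, IGLC3 with only 3 reads in CD8αβ cells. IGLC1 was lower (0.375% against 0.667%, adjusted p = 0.181, Fisher's exact test) and IGLC2 higher (7 and 2 reads, adjusted p = 0.857, same test), and neither was past it. The part that B cells or plasma cells in the sorted fractions had in the immunoglobulin reads was not tested. In bulk RNA, fewer cells of a type and less RNA for each cell cannot be told apart.

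Switched isotypes made up a smaller part of the IGH reads in CD8αα cells than in CD8αβ cells. They held 277 of 493 reads in CD8αα cells, or 56.2% (51.8 to 60.5), and 153 of 195 reads in CD8αβ cells, or 78.5% (72.2 to 83.7). The difference of -22.3 percentage points (-29.1 to -14.6) was past the threshold in a test that takes reads as independent (Fisher's exact p on reads = 3.04e-08). With each clonotype counted once, switched isotypes made up 57 of 126 clonotypes in CD8αα cells, or 45.2% (36.8 to 53.9), and 44 of 75 clonotypes in CD8αβ cells, or 58.7% (47.4 to 69.1). That difference pointed the same way at -13.4 percentage points, but its interval reached from -26.9 to 0.835 and it was not past the threshold (Fisher's exact test on clonotypes, p = 0.0802). Among clonotypes with at least 2 reads it came to -22.8 percentage points and was past the threshold (exact p = 0.0179).

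Taken over all listed reads, the libraries differed in unswitched and not detectably in switched reads. Unswitched IGH reads were 3.52% of all listed reads in CD8αα cells (3.09 to 4.01) and 1.31% in CD8αβ cells (0.968 to 1.76). This was a 2.70-fold difference with CD8αα cells above (exact p over reads = 6.35e-11, Fisher's test). Switched IGH reads were 4.52% (4.02 to 5.07) and 4.76% (4.08 to 5.55), and the interval of the difference, -1.17 to 0.634 percentage points, included 0 (Fisher's exact test, p = 0.603). Neither share of all listed reads was repeated under the alternatives. Their totals also hold reads without a constant gene, since 5865 of 6133 reads in CD8αα and 2700 of 3215 in CD8αβ cells had one.

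Of the 8 heavy-chain constant genes listed in either library, 2 differed by reads after Benjamini-Hochberg adjustment (25.0%), IGHM upward and IGHA downward in CD8αα cells. By clonotypes 0 of the 8 differed (0%), and 0 had an unadjusted p under 0.05 in Fisher's exact test. The constant genes of all chains were tested by reads alone. When each was taken as a share of all reads with a constant gene, 7 of 20 constant genes over all chains differed (35.0%), and IGHM was the 1 heavy-chain member among them, with 3.34% against 1.33% of these reads, which was 2.51-fold higher in CD8αα cells (Benjamini-Hochberg adjusted Fisher's exact p = 9.6e-08). IGKC, the constant gene of the kappa light chain, was higher as well, with 12.6% and 6.67% of these reads and a ratio of 1.90. IGHA went the other way, with 2.69% and 3.63% (adjusted p = 0.0504, Fisher's exact test), and it passed the threshold under 3 of 7 alternatives (at least 2 reads, tied constant genes left out, and constant gene scores of at least 100). Of the 7 genes, 5 were higher in CD8αα cells (IGHM, IGKC, IGLC3, TCRG-C1 and TCRG-C2).

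**Figure D1:**
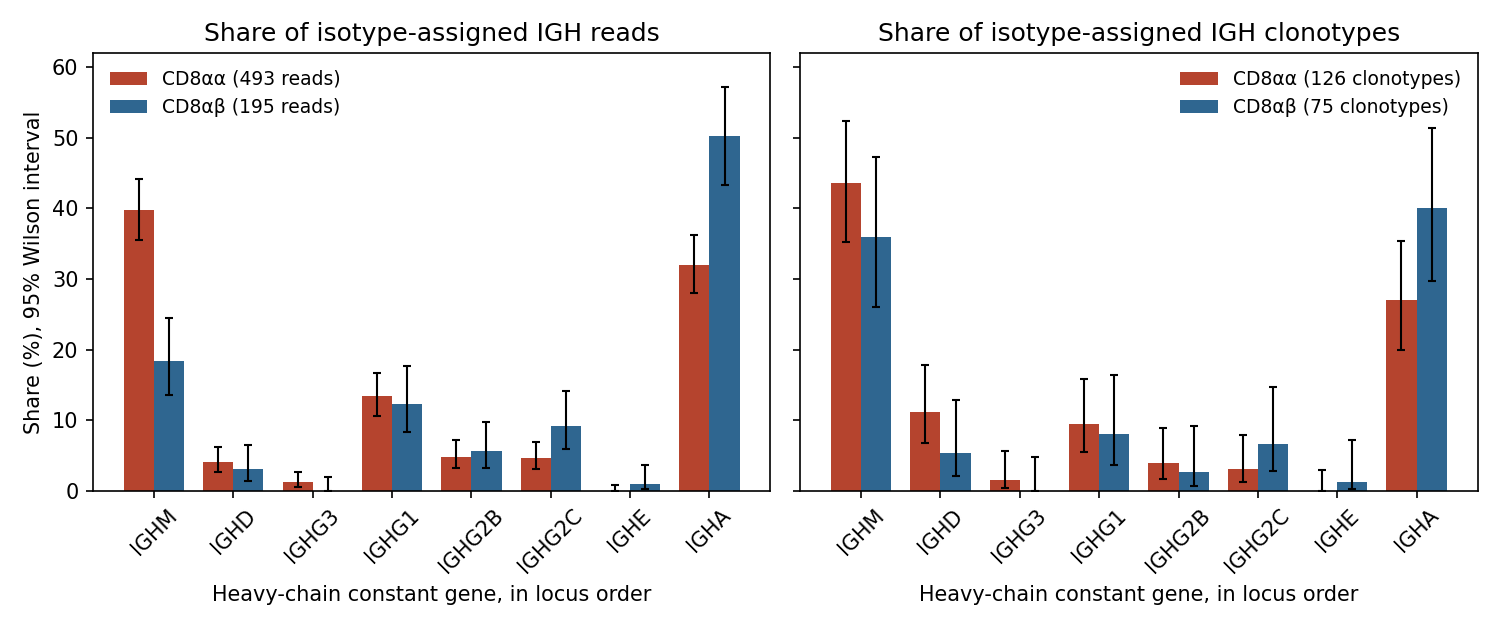
Share of each heavy-chain constant gene among isotype-assigned IGH reads (left, %) and clonotypes (right, %) in CD8αα (red) and CD8αβ T cells (blue), with 95% Wilson intervals as error bars. By reads the intervals of IGHM (39.8% against 18.5%) and IGHA (32.05% against 50.3%) do not overlap between the libraries, and by clonotypes the intervals of every constant gene overlap.

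IGHM encodes the heavy chain of IgM, the first antibody class a B cell makes. It was the isotype with the most reads in CD8αα cells, with 196 reads or 39.8% (35.5 to 44.1), and held 36 reads or 18.5% (13.6 to 24.5) in CD8αβ cells, a difference of 21.3 percentage points (13.9 to 27.8; Fisher's exact test on reads, Benjamini-Hochberg adjusted p = 4.91e-07). By clonotypes it had 55 of 126 in CD8αα cells, or 43.7%, and 27 of 75 in CD8αβ cells, or 36.0% (adjusted p = 0.597, Fisher's exact test). The read counts of single IGHM clonotypes differed more than their number. In CD8αα cells an IGHM clonotype held 3.56 ± 4.39 reads (SD over 55 clonotypes), with a median of 2 and a maximum of 25, and 15 of them held more than 3 reads. In CD8αβ cells it held 1.33 ± 0.620 reads (SD over 27 clonotypes), with a median of 1 and a maximum of 3, so none of them held more than 3 reads. Clonotypes with 1 read were 21 of 55 (38.2%, 26.5 to 51.4) and 20 of 27 (74.1%, 55.3 to 86.8). At an equal number of 36 IGHM reads, 22.4 clonotypes would be expected in CD8αα cells, by the hypergeometric formula, against 27 in CD8αβ cells.

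The largest IGHM clonotype of CD8αα cells, the 7 amino acid CDR3 of IGHV14-3 and IGHJ2 printed above, held 25 reads or 12.8% of the IGHM reads. Without the largest IGH clonotype of each library IGHM was at 36.5% and 19.5% of reads (adjusted p = 0.000134, Fisher's exact test), and without the largest clonotype of each constant gene at 41.9% and 21.6%. IGHV14-3 was also the V gene with the most IGHM reads in CD8αα cells (29 reads in 2 clonotypes), and in CD8αβ cells it was IGHV1-59 (6 reads in 3 clonotypes). V genes are first hits, and several V hits were listed for 30 of 55 IGHM clonotypes of CD8αα and 20 of 27 of CD8αβ cells. IGHJ2 held the most IGHM reads in both, 54.6% in CD8αα and 47.2% in CD8αβ cells.

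IGHD encodes the heavy chain of IgD, which mature B cells that have not met antigen carry together with IgM. It held 20 reads (4.06%, 2.64 to 6.18) in 14 clonotypes of CD8αα cells and 6 reads (3.08%, 1.42 to 6.55) in 4 clonotypes of CD8αβ cells. No difference was past the threshold by reads (adjusted p = 0.802, Fisher's exact test) or by clonotypes (11.1% and 5.33%, adjusted p = 0.597, same test). The largest IGHD clonotypes had 3 and 2 reads. Among unswitched clonotypes, IGHD made up 20.3% (12.5 to 31.2) in CD8αα and 12.9% (5.13 to 28.9) in CD8αβ cells.

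IGHA encodes the heavy chain of IgA, the antibody class of mucosal surfaces. It was the isotype with the most reads in CD8αβ cells, with 98 reads or 50.3% (43.3 to 57.2), and held 158 reads or 32.05% (28.1 to 36.3) in CD8αα cells, a difference of -18.2 percentage points (-26.2 to -10.1; Fisher's exact test on reads, Benjamini-Hochberg adjusted p = 4.56e-05). By clonotypes IGHA had 34 of 126 in CD8αα cells, or 27.0% (20.0 to 35.3), and 30 of 75 in CD8αβ cells, or 40.0% (29.7 to 51.3; adjusted p = 0.494, Fisher's exact test). In contrast to IGHM, many IGHA clonotypes of both libraries held several reads, with 4.65 ± 3.32 reads (SD over 34 clonotypes, median 4, maximum 16) in CD8αα cells and 3.27 ± 2.60 reads (SD over 30 clonotypes, median 3, maximum 10) in CD8αβ cells. In CD8αβ cells, 2 IGHA clonotypes of 10 reads each were the largest of the heavy chain, while the largest IGHA clonotype of CD8αα cells held 16 reads, or 10.1% of its IGHA reads. By the first V hit, IGHA was spread over 26 V genes in CD8αα and 25 in CD8αβ cells. Several V hits were listed for 14 of 34 and 12 of 30 IGHA clonotypes. The J segment with the most IGHA reads was IGHJ2 in CD8αα cells (33.5%), closely followed by IGHJ4 (32.9%), and IGHJ4 in CD8αβ cells (45.9%).

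The IGHG genes encode the 4 IgG subclasses of this strain, among which IGHG2C takes the place that IGHG2A has in other strains. Together they held 119 reads or 24.1% (20.6 to 28.1) in CD8αα cells and 53 reads or 27.2% (21.4 to 33.8) in CD8αβ cells, and the interval of the difference was -10.6 to 3.95 percentage points (Fisher's exact test, p = 0.435). By clonotypes they were 18.3% and 17.3%. IGHG1 was the most frequent subclass, with 66 reads (13.4%, 10.7 to 16.7) in 12 clonotypes of CD8αα and 24 reads (12.3%, 8.41 to 17.7) in 6 clonotypes of CD8αβ cells. IGHG2B held 24 reads (4.87%) in 5 clonotypes and 11 reads (5.64%) in 2 clonotypes. IGHG2C held 23 reads (4.67%, 3.13 to 6.90) in 4 clonotypes of CD8αα and 18 reads (9.23%, 5.92 to 14.1) in 5 clonotypes of CD8αβ cells, which was not past the threshold after adjustment (Fisher's exact p = 0.0309, Benjamini-Hochberg adjusted p = 0.0824). A single clonotype of 12 reads held 52.2% of the IGHG2C reads in CD8αα cells, and 1 of 9 reads held 50.0% of them in CD8αβ cells. For IGHG2B, the largest clonotype held 50.0% and 72.7% of the reads.

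IGHG3 was listed in CD8αα cells with 6 reads in 2 clonotypes (1.22%, 0.559 to 2.63), and 0 of the 195 isotype-assigned reads of CD8αβ cells allow a share of up to 1.54% by the floor of 3 reads and 1.93% by the Wilson interval, so a difference was not detectable at this depth. Both IGHG3 clonotypes had the same nucleotide CDR3 and IGHJ4, and were listed apart for their V hits, IGHV1-50 with 5 reads and IGHV1-52 with 1 read.
IGHG3, both entries: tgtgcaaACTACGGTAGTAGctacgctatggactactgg
IGHE, the constant gene of the mast cell-binding IgE, was listed with 2 reads in 1 clonotype of CD8αβ cells, and 0 of 493 reads in CD8αα cells allow a share of up to 0.609% by the floor and 0.773% by the Wilson interval.

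**Figure D2:**
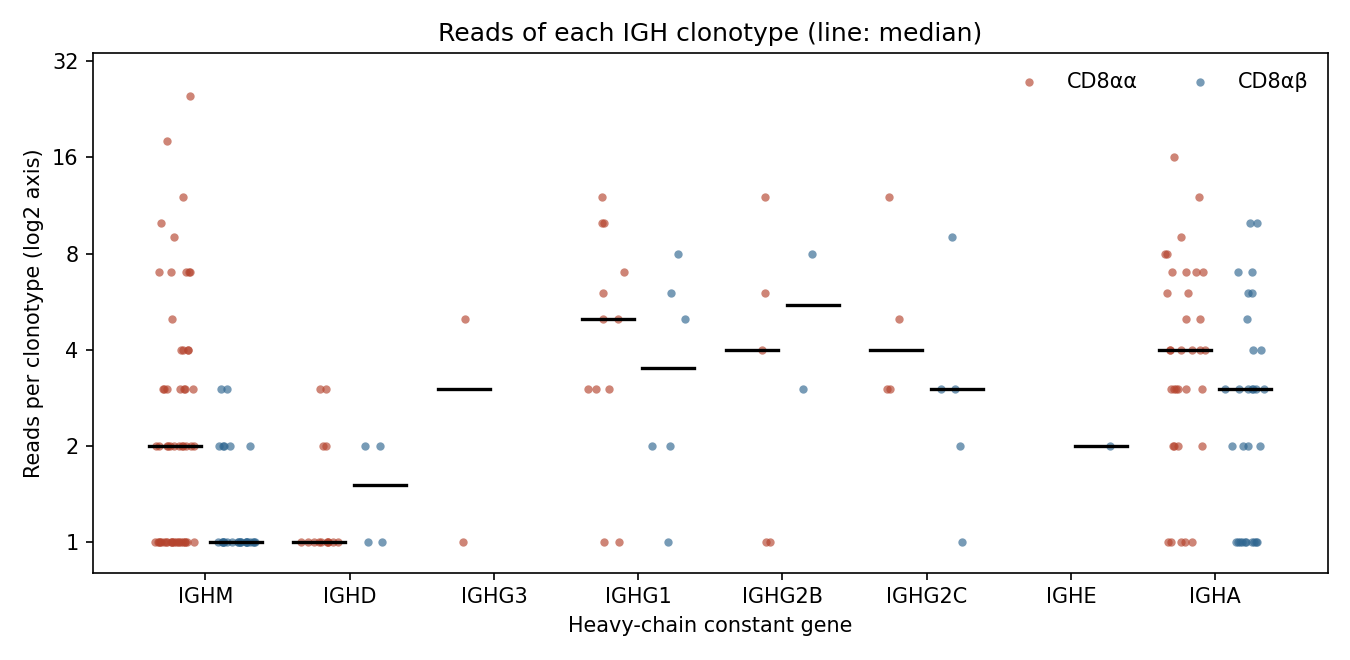
Reads of each IGH clonotype (points, log2 axis) by constant gene in CD8αα (red) and CD8αβ T cells (blue), with the median as a line. IGHM clonotypes reach 25 reads in CD8αα cells and do not exceed 3 reads in CD8αβ cells, while IGHA clonotypes reach 16 and 10 reads.

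Over all IGH clonotypes, the mean was 3.82 ± 3.80 reads (SD over 133 clonotypes, median 3) in CD8αα cells and 2.41 ± 2.22 reads (SD over 85 clonotypes, median 1) in CD8αβ cells. Switched clonotypes held more reads than unswitched clonotypes in both libraries. The means were 4.86 ± 3.46 and 3.13 ± 4.02 reads in CD8αα cells (SD over 57 and 69 clonotypes), and 3.48 ± 2.64 and 1.35 ± 0.608 reads in CD8αβ cells (SD over 44 and 31 clonotypes). Of the 14 IGH clonotypes with more than 3 reads in CD8αβ cells, 14 were switched, and of 48 such clonotypes in CD8αα cells 32 were switched, 15 were unswitched and the remaining 1 had no constant gene. No IGH clonotype exceeded 4.92% of the IGH reads of its library. CD8αα T cells had the deeper list, and at an equal number of 205 IGH reads, 92.5 clonotypes would be expected in CD8αα cells, against the 85 of CD8αβ cells. These are descriptions of clonotypes within 1 library each, and no test was made on them.

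Clonotypes without a constant gene held few reads, with 15 reads in 7 clonotypes of CD8αα cells (maximum 6) and 10 reads in 10 clonotypes of CD8αβ cells (maximum 1). A constant gene was therefore listed for 97.0% (95.2 to 98.2) and 95.1% (91.3 to 97.3) of the IGH reads (Fisher's exact test, p = 0.259). No heavy-chain clonotype had constant gene hits tied at the best score, so no isotype rested on a tie. There were 0.614 heavy-chain reads for each light-chain read in CD8αα cells and 0.872 in CD8αβ cells, whereas the number of heavy-chain clonotypes for each light-chain clonotype was 0.905 and 0.895.

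Lengths of the CDR3 are in amino acids (aa) and include the conserved residue at either end. The mean over clonotypes was 13.3 ± 2.97 aa in CD8αα cells (SD over 133 clonotypes, range 6 to 20) and 13.6 ± 2.38 aa in CD8αβ cells (SD over 85 clonotypes, range 8 to 19), and the 95% intervals of the means overlapped (12.8 to 13.9 and 13.05 to 14.1). Switched and unswitched clonotypes had almost the same mean, 13.3 and 13.3 aa in CD8αα cells and 13.5 and 13.4 aa in CD8αβ cells. The mean of IGHM was 13.4 ± 2.68 aa against 13.3 ± 2.20 aa, and that of IGHA was 12.9 ± 3.39 aa against 13.5 ± 2.58 aa. The 5 IGHG2B clonotypes of CD8αα cells were the longest on average, at 17.4 ± 2.61 aa with a range of 13 to 19, and the 2 of CD8αβ cells had 11 and 13 aa.

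Among clonotypes with at least 2 reads, the mean was 13.2 aa in CD8αα cells and 14.1 aa in CD8αβ cells, a difference of -0.846 aa (SE 0.465). Weighted by reads, the mean CDR3 length was 13.03 aa in CD8αα cells and 14.01 aa in CD8αβ cells. The same order held within IGHM (12.7 and 13.8 aa) and within IGHA (12.7 and 14.4 aa). It also held within IGHD (13.35 and 14.2 aa) and IGHG1 (12.9 and 13.3 aa). The order was reversed within IGHG2B (15.5 and 11.5 aa), IGHG2C (15 and 14.3 aa) and all IGHG clonotypes (13.8 and 13.3 aa). The IGHM mean of CD8αα cells includes the 25 reads of its largest clonotype, which has 7 aa. CDR3s of 8 aa or fewer, a limit chosen after the lengths had been seen, held 60 reads in 10 clonotypes of CD8αα cells, which was 11.8% of its IGH reads, and 2 reads in 2 clonotypes of CD8αβ cells. Of the 10 short clonotypes of CD8αα cells, 4 were IGHM, among them the largest one, and 4 were IGHA. The 2 of CD8αβ cells were both IGHA.

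**Figure D3:**
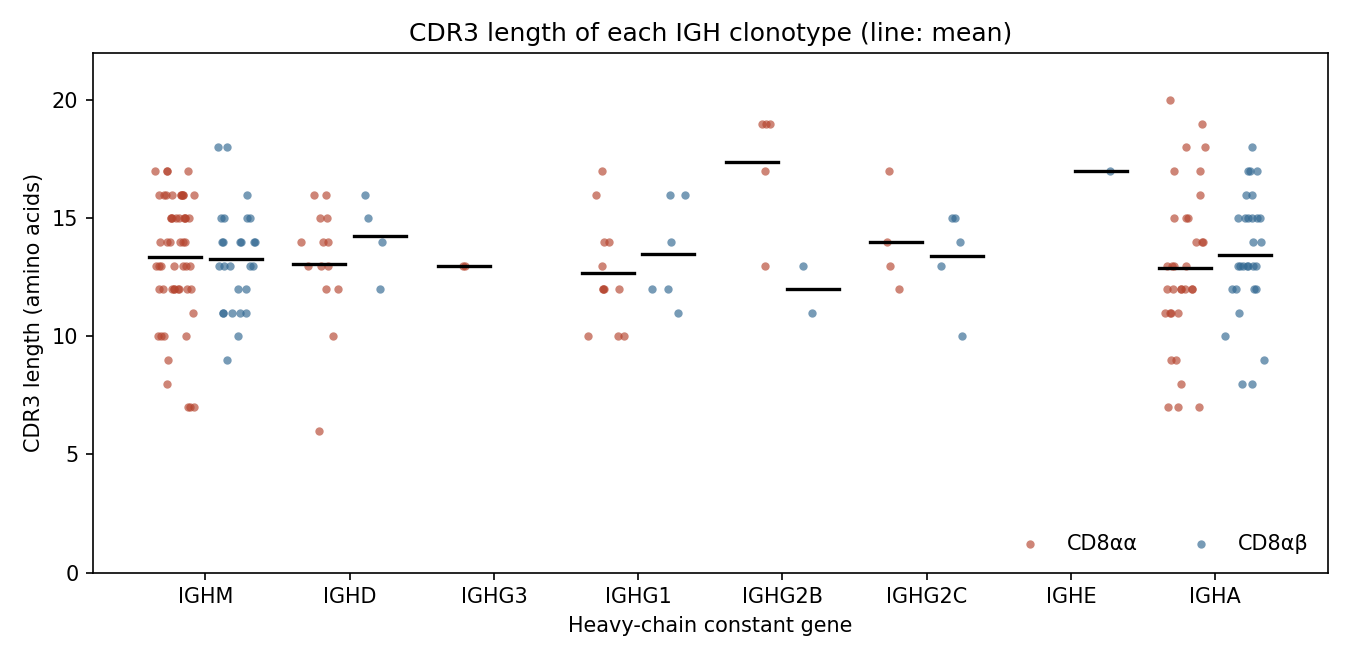
CDR3 length in amino acids of each IGH clonotype (points) by constant gene in CD8αα (red) and CD8αβ T cells (blue), with the mean over clonotypes as a line. The points of IGHM and IGHA overlap over most of their range, and CDR3s of 7 aa or fewer are seen in CD8αα cells only.

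Mismatches to the germline were more frequent in switched clonotypes. Mismatches were counted in the parts of the CDR3 that the authors' alignment assigned to the V and J segments, on average 24.2 to 25.8 bases for each clonotype of the classes compared, and this measure was added after the isotypes had been described. In CD8αα cells 20 of 57 switched clonotypes had at least 1 mismatch, or 35.1% (24.0 to 48.1), against 7 of 69 unswitched clonotypes, or 10.1% (5.0 to 19.5). The difference was 24.9 percentage points (10.4 to 38.9; Fisher's exact test on clonotypes, Benjamini-Hochberg adjusted over both libraries, p = 0.00185). In CD8αβ cells the shares were 17 of 44, or 38.6% (25.7 to 53.4), and 5 of 31, or 16.1% (7.09 to 32.6), a difference of 22.5 percentage points (1.55 to 39.8; adjusted p = 0.0421, Fisher's exact test). Among clonotypes with at least 2 reads, only 9 unswitched clonotypes were left in CD8αβ cells, and its difference of 23.3 percentage points was not past the threshold (adjusted p = 0.24, Fisher's exact test), while that of CD8αα cells was 28.3 percentage points (adjusted p = 0.00443). With 1 clonotype for each nucleotide CDR3 the difference was 23.5 percentage points in CD8αα cells and stayed at 22.5 in CD8αβ cells. The mismatch tests were made within each library. Clonotypes of 1 library are not replicates, so these tests reflect counting error alone. The source of the mismatches was not tested.

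For each 100 aligned bases, switched clonotypes had 1.955 mismatches in CD8αα cells and 2.03 in CD8αβ cells, and unswitched clonotypes had 0.402 and 0.750. IGHG1 had a mismatch in 8 of 12 clonotypes of CD8αα cells and 4.03 for each 100 aligned bases, against 3 of 6 clonotypes and 2.05 in CD8αβ cells. IGHA clonotypes carried one in 9 of 34 (26.5%, 14.6 to 43.1) and 11 of 30 (36.7%, 21.9 to 54.5). IGHM clonotypes carried one in 6 of 55 (10.9%, 5.10 to 21.8) and 5 of 27 (18.5%, 8.18 to 36.7). The switched genes were not alike in CD8αα cells, since 0 of 5 IGHG2B clonotypes and both IGHG3 clonotypes carried one, the latter sharing 1 CDR3. Some of the 12 IGHG1 clonotypes of CD8αα cells also shared a nucleotide CDR3 under different V hits, so they are not all distinct. The intervals of IGHA and of IGHM overlapped between the libraries.

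**Figure D4:**
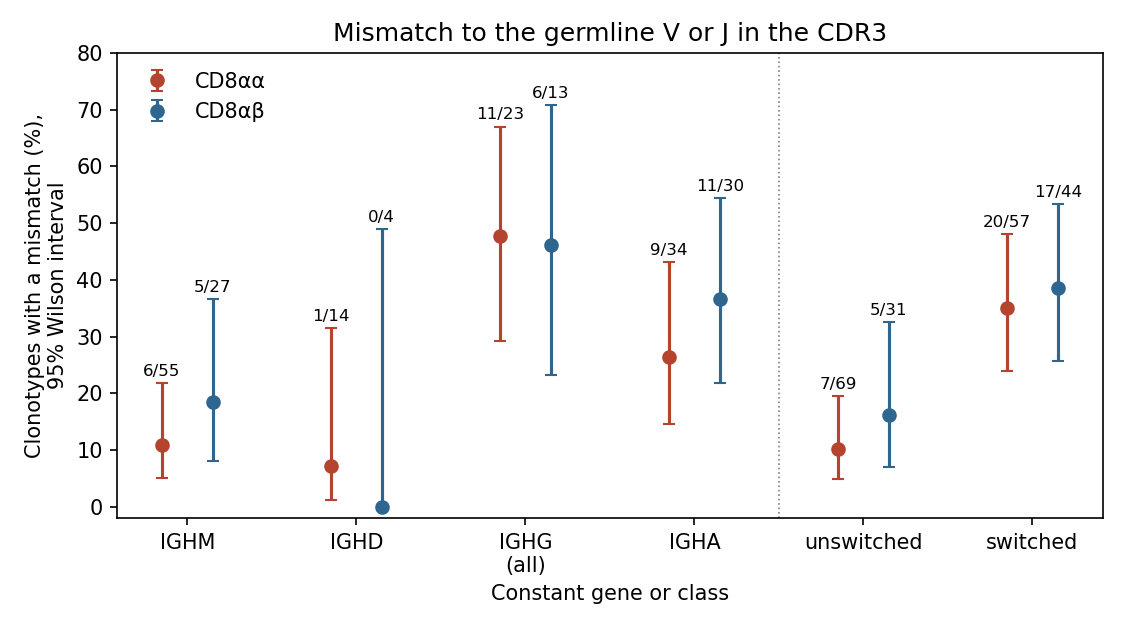
Share of IGH clonotypes with at least 1 mismatch to the germline V or J segment in the CDR3 (%, points) with 95% Wilson intervals, by constant gene (left of the dotted line) and by class (right), in CD8αα (red) and CD8αβ T cells (blue). The numbers above the bars are clonotypes with a mismatch over all clonotypes, and switched clonotypes are at 35.1% and 38.6% against 10.1% and 16.1% of unswitched clonotypes.

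IGH clonotypes were found in both libraries in 2 cases, which was 1.504% of the CD8αα and 2.35% of the CD8αβ clonotypes, by identical nucleotide CDR3, V gene and J gene. The overlap of the other chains was not counted, so these shares cannot be called low or high for the lists. Both shared IGH clonotypes were switched and had the same isotype in both libraries.
IGHA, IGHV8-8 with IGHJ4: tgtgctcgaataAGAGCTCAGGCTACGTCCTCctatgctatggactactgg
IGHG1, IGHV1-53 with IGHJ2: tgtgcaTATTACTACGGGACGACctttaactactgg
The IGHA clonotype held 10 reads in CD8αβ cells, where no IGH clonotype was larger, and 4 reads in CD8αα cells. The IGHG1 clonotype held 10 reads in CD8αα cells and 2 reads in CD8αβ cells. Without both clonotypes, switched isotypes were at 54.9% and 77.0% of the reads.

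In CD8αα cells, 9 nucleotide CDR3s were listed with 2 different V hits, and in CD8αβ cells 0 were. The constant gene was the same in 8 of these 9 pairs. The exception was a CDR3 of 7 aa that was listed as IGHA with IGHV2-2 (12 reads) and as IGHM with IGHV2-5 (2 reads).
IGHA with IGHV2-2 and IGHM with IGHV2-5, both with IGHJ4: tgtgccaAAatggactactgg
With 1 clonotype for each nucleotide CDR3, switched isotypes were at 56.6% and 78.5% of the reads and at 44.4% and 58.7% of the clonotypes.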

How the data were processed

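Bulk RNA libraries of liver CD8αα and CD8αβ T cells (1 each) were used. Receptor clonotypes were assembled by the authors in MiXCR (version 3.0.12). For every clonotype they deposited a raw count of reads and the fraction that this makes up of the listed reads. The labels name the build mm10, and the reference library, command and read filters are not given in the sources used here. The deposited counts and constant gene hits were used here, 6133 and 3215 reads in all, and the deposited fraction was only checked against the counts.

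Calculations ran in Python 3.11.15 (scipy 1.17.1, statsmodels 0.14.6, pandas 2.3.3, numpy 2.4.6) and plots were drawn by matplotlib 3.10.9. Shares have 95% Wilson intervals and differences have Newcombe intervals. The test was Fisher's exact test, two-sided, at a threshold of 0.05, with p-values adjusted by the Benjamini-Hochberg method over constant genes, and the scripts were tested on simulated data. The floor is 3 reads. Lengths and reads for each clonotype were not tested. Named were all constant genes listed, the largest clonotypes of each (ties of up to 2), those in both libraries, and the V and J gene with the most reads. The members and lists were chosen with earlier results of these data known. Coordinates are from the GENCODE annotation of GRCm38. Alternatives were a minimum of 2 reads, leaving out the largest or the shared clonotypes, merging CDR3s 1 nucleotide apart (5 times the reads), other definitions of IGH, tied hits, and, added after seeing the data, 1 clonotype for each CDR3, constant gene scores of at least 100, IGHE left out, and dropping each constant gene's largest clonotype.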

Additional observations from a re-analysis of the deposited data

How the results depend on the processing

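Of 85 comparisons under the alternatives, 7 changed direction, crossed the threshold or, for values without a test, moved beyond the spread. Over the constant genes of all chains the count was 7 to 9. IGHA was added with at least 2 reads (where IGLC1 was also added and IGLC3 lost), without tied hits (where TRBC1 was also added) and with scores of at least 100. The switched share of IGH reads stayed lower in CD8αα T cells under 11 alternatives, with differences of -28.5 to -18.1 percentage points and an exact p of 4.61e-12 to 1.22e-05 (Fisher's test), and by reads IGHM and IGHA were the 2 constant genes called under each of 9. By clonotypes the switched share became past the threshold with at least 2 reads (-22.8 percentage points) and with constant gene scores of at least 100 (-16.7 percentage points), the latter added after seeing the data. The IGH share of listed reads fell below it with at least 2 reads (0.932 percentage points) and over reads with a constant gene (1.18 percentage points), and the mismatch difference of CD8αβ T cells with at least 2 reads (23.3 percentage points). The isotype-assigned share of IGH reads, which was not past the threshold, turned from 1.93 to -2.38 percentage points with at least 2 reads, since every CD8αβ clonotype without a constant gene had 1 read. The mean CDR3 length differed by -0.976 aa when weighted by reads and -0.846 aa with at least 2 reads, against -0.219 aa over clonotypes. Leaving out tied constant gene hits and taking a V or J hit of IGH removed or added no IGH clonotype. Merging CDR3s 1 nucleotide apart left the isotype shares of IGH reads as they were. For these read shares, such alternatives repeat the main result and are no added check. No paired analysis was possible because each cell type had 1 library. Depth limits the rare isotypes: 3 reads are 0.609% (CD8αα) and 1.54% (CD8αβ) of the isotype-assigned reads.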
